A study of Mus with 18 samples.

Results

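The epidermal growth factor receptor gene Egfr and 6 of its ligand genes, Hbegf, Tgfa, Btc, Ereg, Areg and Epgn, were followed in mouse lens epithelial cells (LECs) after lens injury. These 7 genes were chosen by name, as the receptor and its ligands, from the 55416 gene IDs that each library lists, and the ID of each was found. EGFR is a cell surface receptor tyrosine kinase. Its ligands are made as membrane-anchored precursors that proteases release from the cell surface, and a released or anchored ligand then binds the receptor of the same or a nearby cell. Binding pairs EGFR with itself or another ErbB receptor and switches on the RAS to ERK kinase cascade and other pathways of survival, growth and migration. EGF family ligands are well known for their part in the wound healing of epithelia, cornea and skin among them.

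RNA sequencing was done on 18 libraries in 6 groups of 3, from mice labelled C57BL/6 and aged 3 to 5 months. The genotypes were wild type (WT), Egr1KO, in which a neo cassette in exon 2 disrupts Egr1 in the whole animal, and FosBcKO, in which floxed exons 2 to 3 of Fosb are removed by the lens-specific MLR10 cre. By the study's methods the Egr1KO stock has a mixed strain name. The MLR10 cre line came on FVB/N and was backcrossed to C57BL/6. The part of strain background in the comparisons of knockout and WT was not tested. LECs of each genotype were collected 0 h or 6 h after the fiber cell mass had been taken out of the lens, as in cataract surgery (PCS, post cataract surgery), and no group was free of this operation. A library pooled 5 lens capsules of 1 time point, which by the study's methods came from 5 independent animals. One eye of a mouse gave a 6 h capsule and the other a 0 h capsule, so the groups of a genotype came from shared mice. No source used here says which mice went into which pool, and the p-values below measure the spread between pools.

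Libraries held 9609295 to 13871592 read pairs counted in genes. The first principal component of the log2 levels, with 43.6% of the variance, placed the 0 h libraries at -90.3 to -39.4 and 8 of the 9 libraries at 6 h at 23.6 to 115.6. Egr1KO replicate 1 at 6 h stood apart at -4.70, and several of the results that rest on it are given with and without it. Read pairs outside annotated genes made up 8.03% to 20.9% of the pairs at 0 h and 20.0% to 30.5% at 6 h, and their part in the differences over time was not tested. The deposited tables do not pair IDs with gene names, and the levels of Egr1 and Fosb and of marker genes of the lens epithelium and of other cell types are not analysed here. The genotype and cell type names are therefore those of the labels. In RNA of whole capsules, fewer cells of a type and less RNA per cell cannot be told apart.

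Of the ligand genes, Hbegf rose after injury in every genotype, by 2.83- to 4.27-fold. Btc rose in WT, and Btc and Ereg rose when the genotypes were fitted together. Tgfa went the other way and fell in FosBcKO. Egfr was not called in any comparison, Areg had 16 counts or fewer in each library and did not pass the filter on low counts, and Epgn had no count in any library. Between a knockout and WT, none of the genes was called at either time. A gene was called where its Benjamini-Hochberg false discovery rate (FDR) in edgeR, over all genes tested, was at most 0.05 and its change was over 2-fold. Gene lengths were not available, so CPM, a gene's counts per 1000000 read pairs counted in genes, is compared between groups for 1 gene and not between genes.

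**Figure D1:**
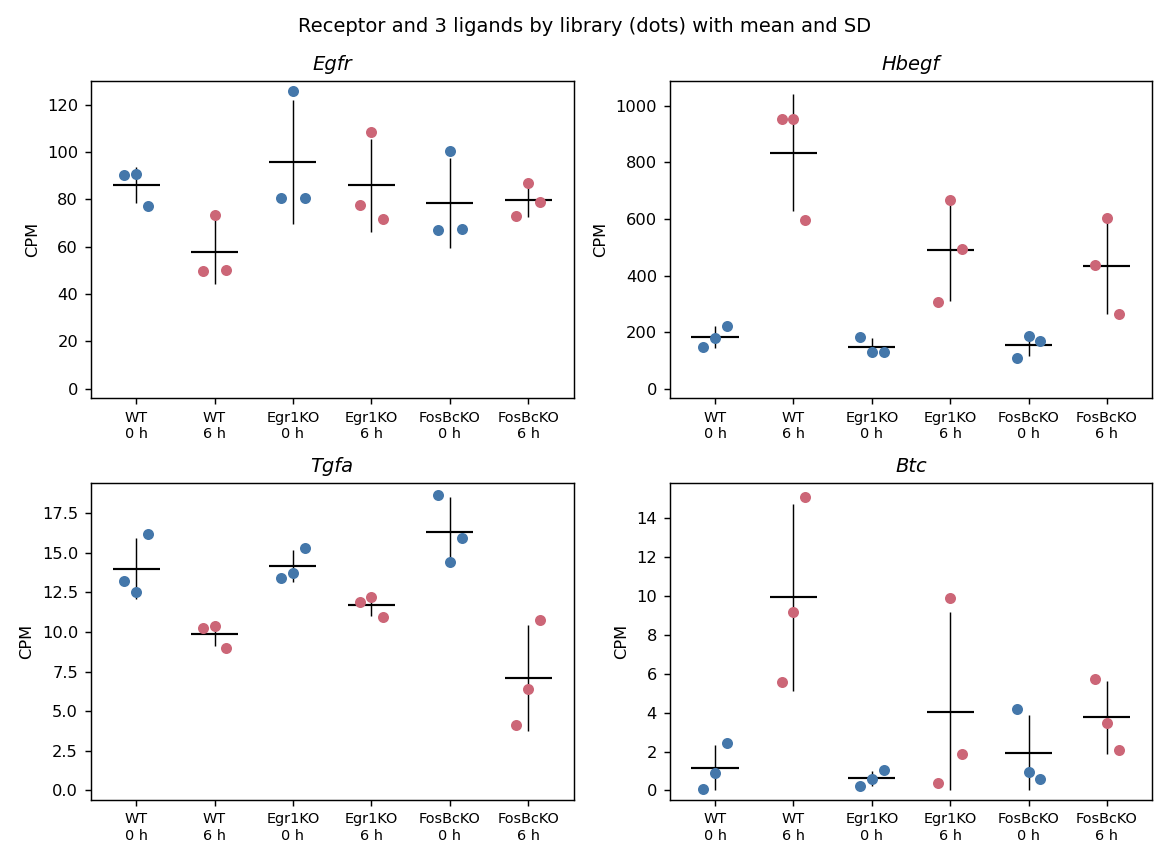
CPM (vertical axes) of Egfr, Hbegf, Tgfa and Btc in the 6 groups, blue at 0 h and red at 6 h, with a dot per library, a horizontal line at the group mean and a vertical line of 1 SD to each side, cut at 0. All libraries at 6 h lie above all libraries at 0 h of the same genotype for Hbegf and below them for Tgfa, and Egfr lies lower at 6 h in WT, whose 6 h mean was 57.8 CPM against 86.1 CPM at 0 h.

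The receptor gene Egfr (ENSMUSG00000020122) was well covered in every library, with 526 to 1504 counts. In WT its level was 90.2, 90.8 and 77.3 CPM in replicates 1 to 3 at 0 h and 49.9, 73.4 and 50.1 CPM at 6 h. All WT libraries at 6 h lay below all WT libraries at 0 h, a pattern shared by 19.8% of the genes tested in WT. The mean was 86.1 ± 7.63 CPM at 0 h and 57.8 ± 13.5 CPM at 6 h (SD, n = 3). The log2 fold change was -0.67 ± 0.21 (SE) with an edgeR FDR of 0.0468, which passed the FDR threshold, as for 26.2% of the genes tested, but not the 2-fold minimum. Over the fits that each left out 1 WT library, this edgeR FDR ranged from 0.00771 to 0.149.

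In the knockouts the Egfr levels of the 0 h and 6 h libraries overlapped. Egr1KO libraries held 80.6, 125.9 and 80.7 CPM at 0 h and 77.8, 108.4 and 71.7 CPM at 6 h. FosBcKO libraries held 67.0, 100.3 and 67.6 CPM at 0 h and 73.1, 86.8 and 78.7 CPM at 6 h. Replicate 2 was the highest of the 3 libraries in each of these groups. The log2 fold change was -0.10 ± 0.20 (SE, edgeR FDR 0.740) in Egr1KO and 0.04 ± 0.18 (SE, edgeR FDR 0.906) in FosBcKO. Whether the change of Egfr over time differed from that in WT was tested as an interaction over all 18 libraries. The difference in log2 fold change was 0.55 ± 0.30 (SE, edgeR FDR 0.777) for Egr1KO and 0.65 ± 0.30 (SE, edgeR FDR 0.731) for FosBcKO, so neither was called.

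Hbegf (ENSMUSG00000024486) encodes heparin-binding EGF-like growth factor, a ligand of EGFR and ERBB4 whose anchored precursor is released by metalloproteases. In WT its level was 146.9, 180.5 and 222.4 CPM at 0 h and 954.3, 952.4 and 595.0 CPM at 6 h. The lowest WT library at 6 h thus lay well above the highest at 0 h, and 28.2% of the genes tested in WT were likewise separate and higher. Ranked by counts within its library, Hbegf stood between places 604 and 985 in WT at 0 h and between places 87 and 133 at 6 h. The mean rose from 183.3 ± 37.9 CPM to 833.9 ± 206.9 CPM (SD, n = 3), and the fit gave a 4.27-fold rise, or 2.10 ± 0.28 (SE) on the log2 scale, with an edgeR FDR of 0.00242. Hbegf and Btc were the members called in WT, both higher, where 13.5% of the 15440 genes tested were called higher and 3.65% lower. The log2 fold change of Hbegf was above that of 91.2% of the genes tested, so many other genes rose by more.

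In Egr1KO, Hbegf held 184.7, 128.9 and 128.8 CPM at 0 h and 307.4, 668.5 and 492.7 CPM at 6 h. The lowest library at 6 h was replicate 1, the one that stood apart on the first component, and it too lay above every 0 h library. Of the genes tested in Egr1KO, 18.1% were likewise separate and higher. The rise was 3.41-fold, or 1.77 ± 0.27 on the log2 scale (SE), with an edgeR FDR of 0.00563. Without replicate 1 at 6 h it was 1.98 on the log2 scale, with an edgeR FDR of 0.000104. Hbegf was the 1 member called in Egr1KO, where 9.28% of 14586 genes were called higher and 2.69% lower.

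In FosBcKO, Hbegf held 110.2, 186.1 and 168.9 CPM at 0 h and 435.6, 602.1 and 263.6 CPM at 6 h. The groups did not overlap, as for 22.8% of the genes tested, which were separate and higher, but the libraries at 6 h were more than 2-fold apart among themselves. The rise was 2.83-fold, or 1.50 ± 0.35 on the log2 scale (SE), with an edgeR FDR of 0.0224. This call was lost when certain single libraries were left out, with little change in the estimate. The edgeR FDR was 0.0546 without FosBcKO replicate 3 at 0 h and 0.126 without FosBcKO replicate 1 at 6 h, at log2 fold changes of 1.55 and 1.50. With no library left out, the FDR over the alternative settings, in edgeR or DESeq2, was at most 0.0227. Hbegf and Tgfa were the members called in FosBcKO, 1 higher and 1 lower, where 11.2% of 15475 genes were called higher and 1.9% lower.

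With all 18 libraries in one fit with genotype as a term, Hbegf was 3.48-fold higher at 6 h, or 1.80 ± 0.20 on the log2 scale (SE), with an edgeR FDR of 1.52e-06. In this fit 3 members were called, Hbegf, Ereg and Btc, all higher, where 18.9% of the 17469 genes tested were called higher and 3.14% lower. The median log2 fold change over all genes tested was 0.08.

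**Figure D2:**
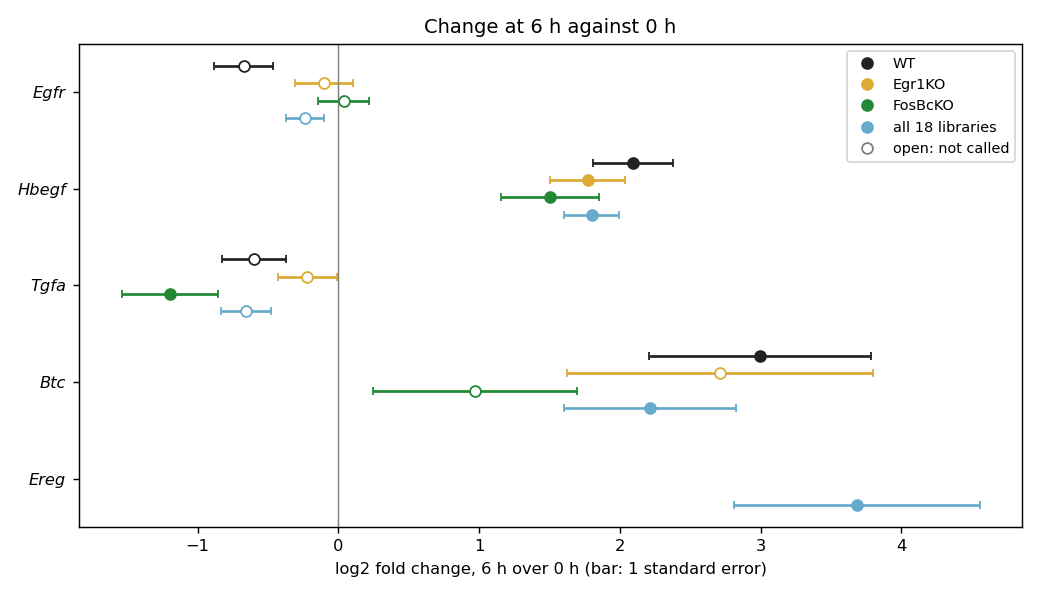
Log2 fold change of 6 h over 0 h (horizontal axis) for 5 of the genes, with bars of 1 standard error, in WT, Egr1KO, FosBcKO and the fit of all 18 libraries; filled points were called. Hbegf is filled in all 4 fits, at 1.50 to 2.10, Tgfa lies left of 0 in all 4 and is filled in FosBcKO, and Ereg passed the filter on low counts in the fit of all libraries alone.

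Tgfa (ENSMUSG00000029999) encodes transforming growth factor alpha, a ligand of EGFR. In WT it held 13.2, 12.5 and 16.2 CPM at 0 h and 10.3, 10.4 and 8.96 CPM at 6 h. In Egr1KO it held 13.4, 13.7 and 15.3 CPM at 0 h and 11.9, 12.2 and 10.9 CPM at 6 h. In FosBcKO it held 18.7, 14.4 and 15.9 CPM at 0 h and 4.12, 6.39 and 10.7 CPM at 6 h. In each genotype all 6 h libraries lay below all 0 h libraries, on this scale and on CPM with the TMM scaling of the fits (trimmed mean of M values). Of the genes tested, 19.8% showed this pattern in WT, 25.2% in Egr1KO and 20.1% in FosBcKO, where each genotype was taken alone.

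The decrease of Tgfa passed the test in FosBcKO, where its level fell to 0.436 of that at 0 h, a log2 fold change of -1.20 ± 0.34 (SE) with an edgeR FDR of 0.0323. Just 2.09% of the genes tested had a lower log2 fold change in FosBcKO. The call was lost without any one of 4 libraries, FosBcKO replicates 1 and 3 at 0 h and replicates 1 and 2 at 6 h, with edgeR FDRs of 0.104, 0.0821, 0.0628 and 0.0805. In WT the log2 fold change was -0.60 ± 0.23 (SE, edgeR FDR 0.0814) and in Egr1KO -0.22 ± 0.21 (SE, edgeR FDR 0.466). In the fit of all 18 libraries it was -0.66 ± 0.18 (SE) with an edgeR FDR of 0.00435, past the FDR threshold, as were 51.5% of the genes tested, but short of the 2-fold minimum. The interaction estimates were 0.35 ± 0.38 for Egr1KO and -0.65 ± 0.39 for FosBcKO (SE), with edgeR FDRs of 0.875 and 0.798, so a difference between genotypes in the decrease was not shown.

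Btc (ENSMUSG00000082361) encodes betacellulin, a ligand of EGFR and ERBB4. It had few counts at 0 h, 1, 10 and 25 in WT, 3, 6 and 10 in Egr1KO and 47, 9 and 6 in FosBcKO. At 6 h it had 59, 91 and 158 counts in WT, 4, 137 and 20 in Egr1KO and 67, 40 and 24 in FosBcKO. The groups were separate in WT and overlapped in both knockouts. Of the genes tested, 28.2% were separate and higher in WT, 18.1% in Egr1KO and 22.8% in FosBcKO. In the knockouts a single library stood well above the others of its own group, Egr1KO replicate 2 at 6 h with 9.88 CPM and FosBcKO replicate 1 at 0 h with 4.19 CPM.

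In WT the mean of Btc rose from 1.14 ± 1.19 CPM to 9.93 ± 4.80 CPM (SD, n = 3), 7.97-fold by the fit, or 2.99 ± 0.79 on the log2 scale (SE), with an edgeR FDR of 0.0275. This log2 fold change was above that of 96.2% of the genes tested in WT. The call was lost without WT replicate 2 at 0 h, replicate 2 at 6 h or replicate 3 at 6 h, with edgeR FDRs of 0.0683, 0.0611 and 0.0688. Without WT replicate 3 at 0 h, which held 25 of the 36 counts at 0 h, the log2 fold change was 4.12. In Egr1KO the mean was 0.620 ± 0.400 CPM at 0 h and 4.05 ± 5.10 CPM at 6 h (SD, n = 3), and the log2 fold change of 2.71 ± 1.08 (SE) had an edgeR FDR of 0.109. Without Egr1KO replicate 1 at 6 h, the library that stood apart, Btc was called in Egr1KO, at 3.22 on the log2 scale with an edgeR FDR of 0.0150. Without Egr1KO replicate 2 at 6 h, the highest library, the log2 fold change was 0.99 with an edgeR FDR of 0.548. In FosBcKO the mean was 1.90 ± 1.99 CPM at 0 h and 3.76 ± 1.86 CPM at 6 h (SD, n = 3), and the log2 fold change was 0.97 ± 0.73 (SE, edgeR FDR 0.356). Without FosBcKO replicate 1 at 0 h, the highest library at 0 h, it was 2.27 with an edgeR FDR of 0.0731. Over all 18 libraries Btc was 4.63-fold higher at 6 h, 2.21 ± 0.61 on the log2 scale (SE), with an edgeR FDR of 0.00578.

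Ereg (ENSMUSG00000029377) encodes epiregulin, a ligand of EGFR and ERBB4. At 0 h it had 0, 0 and 1 counts in WT, 1, 2 and 0 in Egr1KO and 2, 0 and 1 in FosBcKO, all at or under the limit of 3 counts that a library with no count allows. At 6 h it had 11, 35 and 10 counts in WT, 2, 26 and 23 in Egr1KO and 1, 12 and 0 in FosBcKO. In WT every library at 6 h lay above every library at 0 h, and 28.2% of the genes tested in WT were likewise separate and higher. In Egr1KO the groups were separate by a narrow margin, with 0.198 CPM in the lowest library at 6 h and 0.192 CPM in the highest at 0 h. There 18.1% of the genes tested were separate and higher. Ereg itself did not pass the filter on low counts within a genotype and is not among the genes of these shares. In FosBcKO the groups overlapped. In both knockouts some libraries at 6 h remained near the level of those at 0 h. These were Egr1KO replicate 1, the library that stood apart, and FosBcKO replicates 1 and 3.

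Summed over the libraries of a group and set against their total counts, Ereg was 57.7 times as abundant at 6 h as at 0 h in WT (exact 95% interval 9.94 to 2320), from 1 count against 56. The ratio was 15.9 (5.13 to 79.5) in Egr1KO and 3.87 (1.06 to 21.2) in FosBcKO. Intervals cover counting error only and leave out the spread between libraries. Ereg passed the filter on low counts in the fit of all 18 libraries, where it was 12.8-fold higher at 6 h, or 3.68 ± 0.87 on the log2 scale (SE), with an edgeR FDR of 0.00164. Its log2 fold change there was above that of 98.8% of the genes tested. When the filter was dropped, the edgeR FDR of Ereg was 0.00115 in WT, 0.0520 in Egr1KO and 0.534 in FosBcKO. Without Egr1KO replicate 1 at 6 h Ereg passed the filter in Egr1KO and was called higher.

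**Figure D3:**
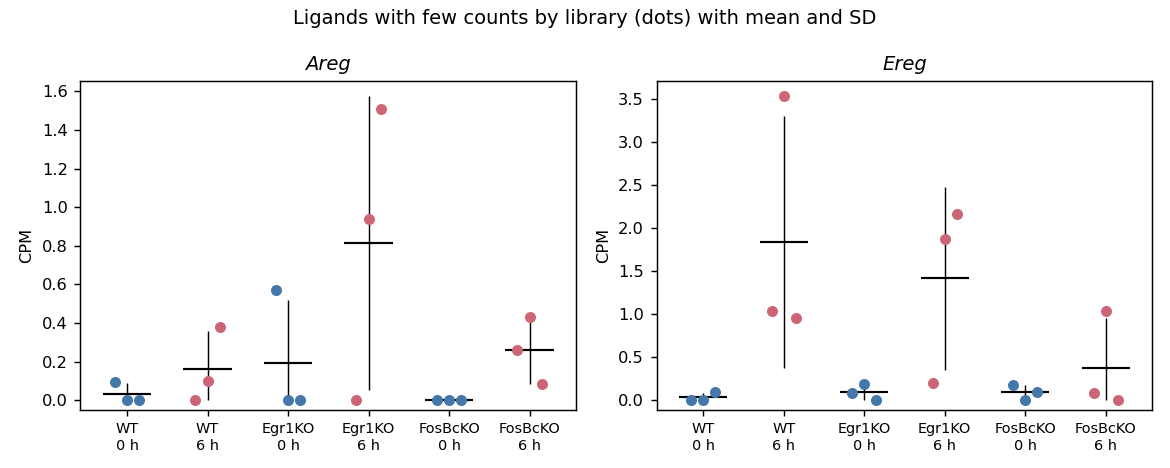
CPM (vertical axes) of Areg and Ereg, the detected ligand genes with the fewest counts, in the 6 groups, blue at 0 h and red at 6 h, with a dot per library, a horizontal line at the mean and a vertical line of 1 SD to each side, cut at 0. For Ereg all 0 h libraries lie at 0.192 CPM or below and the highest library is WT replicate 2 at 6 h with 3.53 CPM, and for Areg the highest 2 are Egr1KO libraries at 6 h with 0.937 and 1.51 CPM.

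Areg (ENSMUSG00000029378) encodes amphiregulin, a ligand of EGFR. At 0 h it had 1, 0 and 0 counts in WT, 7, 0 and 0 in Egr1KO and none in FosBcKO. At 6 h it had 0, 1 and 4 counts in WT, 0, 13 and 16 in Egr1KO and 3, 5 and 1 in FosBcKO. The libraries at 6 h and 0 h overlapped in WT and Egr1KO and were separate in FosBcKO by 1 count or more. Of the genes tested in FosBcKO, which passed the filter on low counts as Areg did not, 22.8% were separate and higher. Areg did not pass the filter in any of the comparisons. Without a filter its edgeR FDR for 6 h against 0 h was 0.573 in WT, 0.419 in Egr1KO, 0.292 in FosBcKO and 0.0659 over all genotypes. Summed over a group, the ratio of 6 h to 0 h was 5.15 in WT (exact 95% interval 0.577 to 244) and 3.87 in Egr1KO (1.66 to 10.5). In FosBcKO, with 9 counts at 6 h and none at 0 h, the exact 95% lower limit of the ratio was 1.76.

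Epgn (ENSMUSG00000035020) encodes epigen, a ligand of EGFR. It had 0 counts in all 18 libraries, which allows a level of up to 0.0153 CPM over the 195883282 read pairs together and of 0.216 to 0.312 CPM in a single library. By the order of RefSeq genes in the assembly GRCm38.p6, Epgn, Ereg, Areg and Btc are consecutive protein-coding genes on 1 chromosome. Of these neighbours Ereg and Btc rose over time in the fit of all genotypes, Areg was not tested there for its low counts, and Epgn had no count. Without a filter the log2 fold change over all genotypes was 2.48 for Areg and 2.16 for Btc, and no test compared the neighbours with each other. The other members lie on other chromosomes.

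To ask whether loss of Egr1 or Fosb alters these genes, edgeR's exact test set each knockout against WT at 0 h and at 6 h. Both knockouts were set against the same WT libraries, so these comparisons are not independent of each other. At 0 h Egfr, Hbegf and Tgfa passed the filter on low counts and none was called, where 0.41% of the genes tested were called for Egr1KO and 0.295% for FosBcKO. For Egr1KO the log2 fold changes ran from -0.29 for Hbegf to 0.17 for Egfr, and for FosBcKO from -0.24 for Hbegf to 0.23 for Tgfa. At 6 h Egfr, Hbegf, Tgfa, Btc and Ereg passed the filter and again none was called, where 0.736% of the genes tested were called for Egr1KO and 5.41% for FosBcKO.

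The mean level of Hbegf at 6 h was 833.9 ± 206.9 CPM in WT, 489.5 ± 180.5 CPM in Egr1KO and 433.8 ± 169.3 CPM in FosBcKO (SD, n = 3). The lowest WT library, at 595.0 CPM, lay below the highest Egr1KO library, at 668.5 CPM, and the highest FosBcKO library, at 602.1 CPM. The other Egr1KO and FosBcKO libraries lay below every WT library. The log2 fold change against WT was -0.59 ± 0.35 (SE, edgeR FDR 0.645) for Egr1KO and -0.81 ± 0.38 (SE, edgeR FDR 0.265) for FosBcKO, so a difference from WT was not shown. Without Egr1KO replicate 1 at 6 h the estimate for Egr1KO was -0.35. As a difference in the change over time the estimates were -0.35 ± 0.47 (SE, edgeR FDR 0.901) for Egr1KO and -0.65 ± 0.47 (SE, edgeR FDR 0.824) for FosBcKO. This difference was -0.11 for Egr1KO without Egr1KO replicate 1 at 6 h.

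Egfr at 6 h averaged 86.0 ± 19.7 CPM in Egr1KO and 79.5 ± 6.85 CPM in FosBcKO, against 57.8 ± 13.5 CPM in WT (SD, n = 3). The knockout libraries overlapped with WT replicate 2, at 73.4 CPM, and lay above the other WT libraries. On TMM-scaled CPM all Egr1KO libraries lay above all WT libraries, as for 6.1% of the genes tested. The log2 fold change was 0.77 ± 0.24 (SE, edgeR FDR 0.261) for Egr1KO and 0.58 ± 0.24 (SE, edgeR FDR 0.269) for FosBcKO. For Egr1KO it was 0.81 without Egr1KO replicate 1 at 6 h, with an edgeR FDR of 0.283.

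Of the ligand genes with fewer counts, Btc at 6 h was 4.05 ± 5.10 CPM in Egr1KO and 3.76 ± 1.86 CPM in FosBcKO, against 9.93 ± 4.80 CPM in WT (SD, n = 3). Its log2 fold change was -1.12 ± 0.86 (SE, edgeR FDR 0.776) for Egr1KO and -1.27 ± 0.46 (SE, edgeR FDR 0.116) for FosBcKO. FosBcKO and WT libraries met at 5.75 and 5.56 CPM, and were separate on TMM-scaled CPM, as 10.8% of the genes tested were in this direction. Without Egr1KO replicate 2 at 6 h, the library with 9.88 CPM, Btc was called lower in Egr1KO, at -2.81 on the log2 scale with an edgeR FDR of 0.00798. Without Egr1KO replicate 1 at 6 h, the library that stood apart, the log2 fold change was -0.58 with an edgeR FDR of 0.945.

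Ereg at 6 h had 56 counts over the WT libraries and 13 over the FosBcKO libraries, a ratio of 0.207 per counted read pair (exact 95% interval 0.104 to 0.383, counting error only). Of the 13 counts 12 were in FosBcKO replicate 2, which lay at the level of WT replicates 1 and 3. The log2 fold change was -2.10 ± 1.19 (SE, edgeR FDR 0.420), and without FosBcKO replicate 2 Ereg was called lower, at -5.07 with an edgeR FDR of 0.0203. Without WT replicate 2 at 6 h, which held 35 of the 56 WT counts, the log2 fold change was -1.17 with an edgeR FDR of 0.793. For Egr1KO the log2 fold change of Ereg was -0.21 ± 0.90 (SE, edgeR FDR 0.983), and it was 0.30 without Egr1KO replicate 1 and 0.74 without WT replicate 2. Tgfa at 6 h was higher in every Egr1KO library than in every WT library, a pattern of 3.17% of the genes tested, at a log2 fold change of 0.45 ± 0.26 (SE, edgeR FDR 0.740). In FosBcKO it was -0.35 ± 0.39 (SE, edgeR FDR 0.810).

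**Figure D4:**
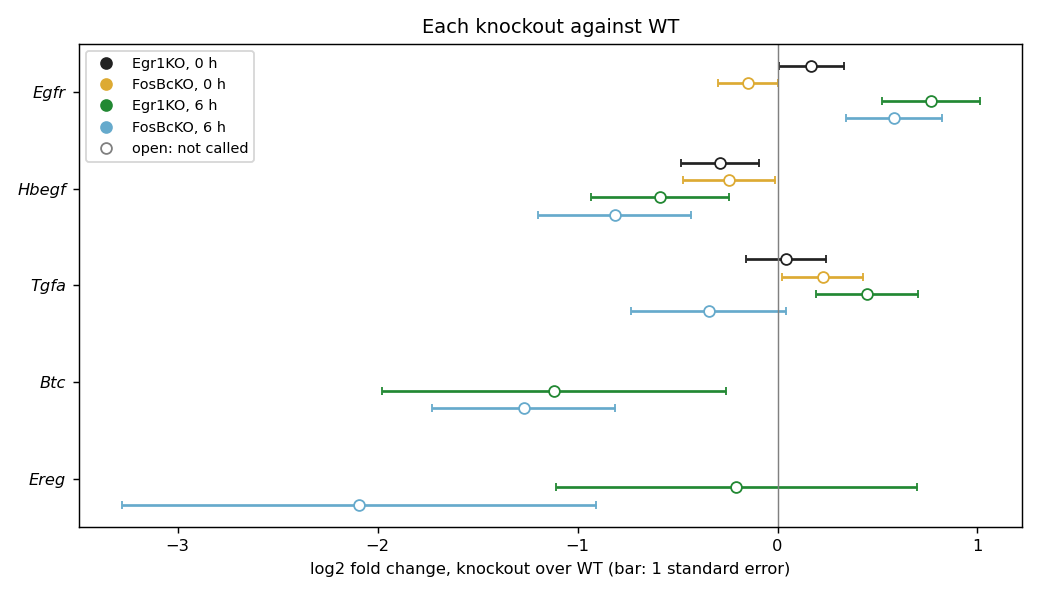
Log2 fold change of each knockout over WT (horizontal axis) at 0 h and 6 h, with bars of 1 standard error, for the genes that passed the filter on low counts; all points are open, as none was called. At 6 h Hbegf, Btc and Ereg lie left of 0 and Egfr right of 0 for both knockouts, which share the WT libraries, and Tgfa lies on opposite sides, at 0.45 and -0.35.

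In the interaction tests over 18 libraries, which ask whether the change over time differed between a knockout and WT, none of the 5 members tested was called by edgeR or by DESeq2. Of all 17469 genes tested, 0% were called by edgeR in either interaction, and 1141 genes for Egr1KO and 1171 for FosBcKO had an unadjusted p under 0.05. Among the members, Egfr in FosBcKO had an unadjusted edgeR p of 0.0443. The widest estimates belonged to the genes with the fewest counts, -1.53 ± 2.10 in Egr1KO and -3.48 ± 2.28 in FosBcKO for Ereg and -0.29 ± 1.50 and -2.09 ± 1.38 for Btc (log2, SE).

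A ratio of counts within a library does not depend on how libraries are scaled. For Hbegf over Egfr it was 1.63, 1.99 and 2.88 in WT at 0 h and 19.1, 13.0 and 11.9 at 6 h. In Egr1KO it was 2.29, 1.02 and 1.60 at 0 h and 3.95, 6.17 and 6.88 at 6 h. In FosBcKO it was 1.64, 1.86 and 2.50 at 0 h and 5.96, 6.94 and 3.35 at 6 h. The genotypes overlapped at 0 h, whereas at 6 h all libraries of both knockouts lay below all WT libraries. The mean at 6 h was 14.7 ± 3.92 in WT, 5.66 ± 1.52 in Egr1KO and 5.42 ± 1.85 in FosBcKO (SD, n = 3). Egfr itself was low in WT at 6 h, and 18% of the other 17468 genes tested had ratios to Egfr that were lower in every library of both knockouts than in every WT library. The ratio combines both genes and does not show which of them differed, and it was given no test.

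**Figure D5:**
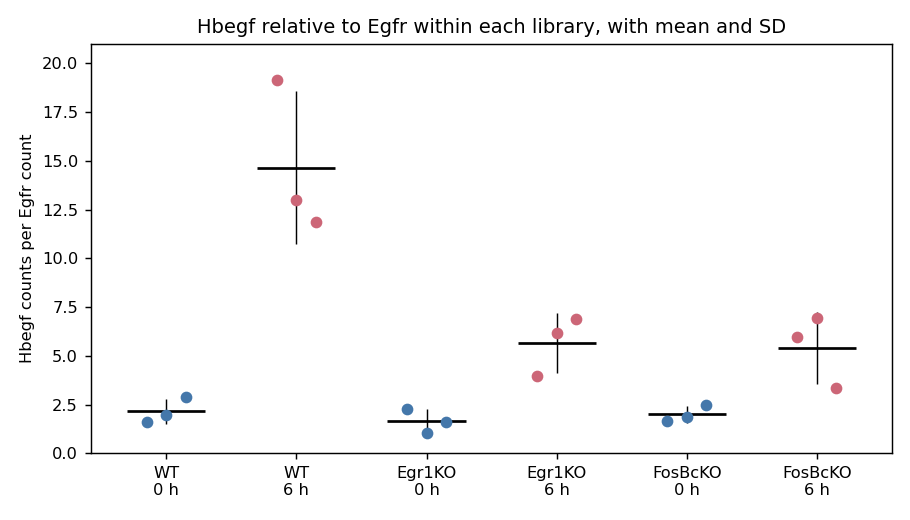
Hbegf counts per Egfr count (vertical axis) in the 6 groups, blue at 0 h and red at 6 h, with a dot per library, a horizontal line at the mean and a vertical line of 1 SD to each side. The WT libraries at 6 h lie between 11.9 and 19.1, above the range of 3.35 to 6.94 of the 6 h libraries of both knockouts.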

How the data were processed

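Ribodepleted RNA was made into stranded libraries and sequenced from both ends, and the authors aligned the reads with Hisat2 and assigned them to Ensembl genes with HTSeq. The deposited tables hold the resulting counts without normalization. The study's methods name the build GRCm38 and the submitters' processing notes GRCm39, so no coordinates are given. HTSeq's summary lines, among them pairs outside genes, were left out of totals. No molecular identifiers are stated, so intervals cover counting error only.

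The 7 genes and all lists were chosen with earlier results of these data known. Each was matched by ID. The RefSeq table matched 0 of 55416 IDs, so lists of pathway genes, cell type markers, the targeted genes and named genes of like pattern are not analysed here, and no protein or promoter sequences were used. All 7 genes are named.

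CPM divides counts by the library's total gene counts. Tests used edgeR 4.0.16 in R 4.3.3 with filterByExpr, TMM scaling and robust dispersions on all genes, with p-values adjusted over all genes tested. The quasi-likelihood F-test was used for 6 h against 0 h (6 libraries per genotype, or all 18 with genotype as a term) and for interactions, and the exact test for each knockout against WT. Standard errors come from the quasi-likelihood fit. Alternatives included DESeq2 1.42.0, RLE scaling, other filters, a replicate block and leaving out each library. The fits were tested on simulated data. Replicates differed by more than sampling noise, with a chi-square per degree of freedom of at least 10.4 in every pair. Deviations from the group mean of WT libraries with the same number at 0 h and 6 h correlated across genes at 0.102, 0.230 and 0.247. Same-numbered libraries of a knockout and WT at one time correlated at -0.259 to 0.198. The lowest value was for WT and FosBcKO replicate 3 at 6 h, the highest for WT and Egr1KO replicate 1 at 6 h. Libraries with different numbers were not compared, so these values cannot show whether the numbers pair libraries. The main fits used no pairing.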

Additional observations from a re-analysis of the deposited data

How the results depend on the processing

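Over 838 alternative settings of 43 log2 fold changes, none reversed its direction with a call, 9 lost a call and 7 gained one. For each fold change 1 setting was the main fit without the 2-fold minimum, not a refit. The 43 leave out genes that did not pass the filter in the main fit, such as Ereg within a genotype. Counts of members called for 6 h against 0 h were 2 in WT, 1 in Egr1KO, 2 in FosBcKO and 3 over all genotypes. In Egr1KO the count was 2 with DESeq2 and 2 with no filter, as Btc was added. In WT it was 3 with no filter, with at least 10 counts in 3 libraries and with all 18 libraries in one fit, as Ereg was added. Leaving out each library gave 1 to 3 in WT, 1 to 3 in Egr1KO, 0 to 2 in FosBcKO and 3 over all genotypes. The count was 1 in WT without WT replicate 2 at 0 h or at 6 h. It was 3 without Egr1KO replicate 1 at 6 h, and 0 without FosBcKO replicate 3 at 0 h or FosBcKO replicate 1 at 6 h. For each knockout against WT at 6 h it was 0 to 1, and it was 0 in every other comparison and setting. The causes were not tested. With no fold minimum Egfr was added in WT and Tgfa over all genotypes.

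The fits with a replicate block called 2, 1, 2 and 3 members for 6 h against 0 h and 0 in the other comparisons, as without it. Same-numbered libraries at 0 h and 6 h correlated at 0.0198, 0.146 and 0.0200 in Egr1KO and at 0.160, 0.0776 and 0.181 in FosBcKO. Pairing was not taken from the numbers in any genotype. TMM scaling moved the Tgfa mean of Egr1KO at 6 h from 11.7 to 12.5 CPM. At these depths Areg, with 0 to 16 counts per library, did not pass the filter on low counts in any comparison of all libraries, and Ereg did not in those of 6 h against 0 h within a genotype.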
